A study of Homo sapiens with 12 samples.

Results

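The 50 genes described here encode assembly factors of the small (40S) ribosomal subunit. They are a list of names with no threshold on measured values, drawn up when earlier results of these data were known, and each of the 50 names matched a single gene among the 63241 genes of the table. All 50 passed the filter on low counts, and they are treated in 8 roles, from the complexes that first bind the nascent ribosomal RNA to the factors that finish the particle. The small-subunit processome is a large assembly that forms in the nucleolus on the precursor transcribed by RNA polymerase I. Its proteins join in modules (UTP-A, UTP-B, the U3 small nucleolar RNP with the MPP10 complex, UTP-C), fold the RNA, cut away the external and internal spacers and are then removed by helicases, after which a smaller group of factors escorts the particle to the cytoplasm. The factors are encoded by mRNAs that RNA polymerase II makes, so both polymerases serve the same product.

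Total RNA was sequenced from HCT116, a human colorectal carcinoma cell line, in 4 groups of 3 libraries. POLR1A-depleted cells were the HCT116-POLR1A-AID line, in which the endogenous largest subunit of RNA polymerase I carries a degron, pretreated for 24 h with 1 µg/ml doxycycline, which switches on OsTIR1, before auxin (500 µM IAA) was given. POLR2A-depleted cells were the HCT116-POLR2A-AID2 line, with a degron on the largest subunit of RNA polymerase II, given the modified auxin 5-Ph-IAA at 1 µM. The other groups were wild-type HCT116 cells with actinomycin D, a DNA intercalator that blocks transcription, at 5 µg/mL, and wild-type HCT116 cells with DMSO, the controls. By the sample titles, degron and control groups were treated for 8 h and the actinomycin D group for 6 h, but the extraction protocol speaks of a 6 h harvest. If the titles hold, treatment time goes together with actinomycin D in every comparison of that group and cannot be told apart from it. No untreated libraries of either degron line are among the samples, so the line, its ligand and, for POLR1A, doxycycline go together with the depletion and cannot be told apart from it. The degron removes protein, so the mRNA of POLR1A or POLR2A does not check the labels. The 3 replicates of a group are technical (dishes handled the same day), so p-values measure the spread between dishes only, and in bulk RNA fewer cells and less RNA per cell cannot be told apart.

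Library totals ran between 18796962 and 21802217 counts in POLR1A-depleted cells, 11289094 and 15037410 in POLR2A-depleted cells, 20302164 and 27393969 with actinomycin D, and 12235068 and 17535685 in the controls. The smallest count of any of the 50 genes in any library was 106. Summed markers of colorectal epithelium, which include KRT8 and KRT18, stood at 1923 to 2060 CPM in POLR1A-depleted cells, 2354 to 2562 CPM in POLR2A-depleted cells, 3201 to 3478 CPM with actinomycin D and 3512 to 3974 CPM in the controls, where 1 of the 8 markers, LGALS4, was at 0. Summed markers of blood cells did not exceed 6.63 CPM in any library. Summed markers of fibroblasts and endothelium reached 21.7 to 23.3 CPM in POLR1A-depleted cells, 20.0 to 24.8 CPM in POLR2A-depleted cells and 11.1 to 12.7 CPM with actinomycin D, against 7.73 to 8.53 CPM in the controls, most of it COL1A1. Among them PECAM1 had a mean of 7.92 CPM in POLR2A-depleted cells, against 0.163 CPM in the controls. The part of these markers in the results was not tested.

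The promoters of the genes were searched for known motifs. RefSeq promoter windows on GRCh38.p14, from 250 bases before to 50 bases after the start, were found for 44 of the 50 genes, and the other 6 are MPHOSPH10, DDX49, DDX52, UTP23, NOL10 and DCAF13. The 44 genes have 45 windows, with an additional window of IMP4. A gene was counted if any of its windows matched, while the shares set beside it count single windows. The palindromic E-box CACGTG, the letters that MYC and its relatives can bind, was present for 19 of the 44 genes (43.2%). It was present in 8.34% of 22199 windows of protein-coding genes and 7.26% of all 35116 windows. Within 50 bases of the start on either side it was present for 17 of the 44 genes (38.6%), against 722 of the 22199 protein-coding windows (3.25%). The other motifs searched on both strands were the ETS letters CCGGAAGT, for 18.2% of the 44 genes against 5.34% of the protein-coding windows, and longer motifs of NRF1, 9.09% against 1.5%, of ZBTB33, 4.55% against 0.568%, and of YY1, 4.55% against 1.18%. No motif overlapped another of these in the windows printed here. These shares are descriptions of the letters, and a match is not a binding site. The windows set beside the 44 genes were not limited to genes that passed the filter on low counts, as these genes did. Shares among windows of genes that passed were not computed.

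Of the 9 genes among the lowest 3 log2 fold changes of a comparison with the controls, 8 have a window, and 6 of these are printed, chosen after the matches were seen to show windows with and without a motif near the start. Matched motifs are in capitals and the rest in lower case. WDR43, at chr2:28894417-28894716 on the plus strand, holds an E-box whose first base has position 4, counted from 1 at the start and from -1 before it. RRP9, at chr3:51941855-51942154 on the minus strand, holds an E-box whose first base has position -5. UTP18, at chr17:51260296-51260595 on the plus strand, holds E-boxes at -89 and 5 with the NRF1 motif at -16 between them. RIOK1, at chr6:7389558-7389857 on the plus strand, holds no E-box and has the ETS letters at -21, in their reverse form. WDR3, at chr1:117929489-117929788 on the plus strand, and IMP3, at chr15:75640175-75640474 on the minus strand, hold none of the motifs searched. Of the other two, UTP14A holds an E-box at -241 and NGDN the YY1 motif at 11.
WDR43: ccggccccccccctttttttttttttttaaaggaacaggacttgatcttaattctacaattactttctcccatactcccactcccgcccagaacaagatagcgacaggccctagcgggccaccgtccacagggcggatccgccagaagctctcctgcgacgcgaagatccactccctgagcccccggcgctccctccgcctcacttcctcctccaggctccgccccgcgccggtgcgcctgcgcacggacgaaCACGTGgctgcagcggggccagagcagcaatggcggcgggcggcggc
RRP9: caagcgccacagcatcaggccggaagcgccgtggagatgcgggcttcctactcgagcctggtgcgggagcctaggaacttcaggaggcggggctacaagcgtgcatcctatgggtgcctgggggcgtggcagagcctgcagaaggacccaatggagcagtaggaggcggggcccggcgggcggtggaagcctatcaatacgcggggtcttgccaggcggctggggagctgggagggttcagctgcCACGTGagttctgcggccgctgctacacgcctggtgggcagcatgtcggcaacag
UTP18: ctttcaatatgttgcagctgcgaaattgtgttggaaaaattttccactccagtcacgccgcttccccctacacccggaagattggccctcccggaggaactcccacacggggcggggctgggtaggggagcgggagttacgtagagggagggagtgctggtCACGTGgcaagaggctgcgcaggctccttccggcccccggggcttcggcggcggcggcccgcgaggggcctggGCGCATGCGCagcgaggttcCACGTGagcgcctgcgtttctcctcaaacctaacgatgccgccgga
RIOK1: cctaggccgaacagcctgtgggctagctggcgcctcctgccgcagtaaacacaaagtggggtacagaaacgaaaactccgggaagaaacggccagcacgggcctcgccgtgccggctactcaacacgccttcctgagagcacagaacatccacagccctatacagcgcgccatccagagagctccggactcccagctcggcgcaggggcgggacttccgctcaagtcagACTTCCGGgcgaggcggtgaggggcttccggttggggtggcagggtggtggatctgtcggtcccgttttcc
WDR3: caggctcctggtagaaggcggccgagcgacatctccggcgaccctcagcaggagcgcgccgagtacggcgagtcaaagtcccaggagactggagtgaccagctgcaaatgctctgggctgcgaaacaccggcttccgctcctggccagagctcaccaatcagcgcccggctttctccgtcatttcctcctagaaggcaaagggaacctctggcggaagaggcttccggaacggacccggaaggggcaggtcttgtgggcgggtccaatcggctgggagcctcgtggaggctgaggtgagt
IMP3: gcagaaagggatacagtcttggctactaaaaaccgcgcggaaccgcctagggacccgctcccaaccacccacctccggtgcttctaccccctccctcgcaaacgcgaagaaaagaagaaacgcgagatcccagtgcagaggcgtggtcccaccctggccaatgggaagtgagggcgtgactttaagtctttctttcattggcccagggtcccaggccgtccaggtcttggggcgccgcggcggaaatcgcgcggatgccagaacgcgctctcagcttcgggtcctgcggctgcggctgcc
With POLR1A depleted, the median log2 fold change was -0.75 over the 19 with an E-box and -0.65 over the 25 without. With POLR2A depleted it was -0.83 with and -0.92 without, and with actinomycin D it was -0.45 in both.

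The 50 mRNAs made up a smaller share of the RNA in all 3 treatments than in the controls. Their summed share of all counts was 0.341% to 0.349% in POLR1A-depleted cells, 0.319% to 0.33% in POLR2A-depleted cells and 0.354% to 0.361% with actinomycin D, against 0.511% to 0.526% in the controls, so that no treated library overlapped a control. With POLR1A depleted, 47 of the 50 fell and 1 rose at an adjusted p under 0.05, while 18.6% of all 23593 genes tested fell and 20.6% rose. With POLR2A depleted, 45 fell and 1 rose, beside 28.2% and 33.2% of all genes. With actinomycin D, 37 fell and 4 rose, beside 28.5% and 24.9% of all genes. The median log2 fold change of the 50 was -0.66 for POLR1A depletion, -0.83 for POLR2A depletion and -0.45 for actinomycin D, where the medians of all genes were 0.01, 0.08 and -0.06. All 50 are protein-coding genes, whereas the genes tested include others. Of the 14924 protein-coding genes tested, 3581 fell and 4287 rose with POLR1A depleted, and 5784 fell and 4786 rose with POLR2A depleted. With actinomycin D 4486 of them fell and 5285 rose. Their medians were 0.052, -0.055 and 0.063.

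Falls of at least 2-fold were called for 6 of the 50 with POLR1A depleted (4.9% of all genes), for 19 with POLR2A depleted (9.64%) and for 10 with actinomycin D (17%). In all 3 comparisons 36 of the 50 (72%) were called lower, against 1503 of the 23593 genes (6.37%); the 3 comparisons share the control libraries. Scaled by mitochondrial mRNAs, as described next, 0 of the 50 were called lower in all 3, against 204 of the 23593 genes (0.865%). Of the 50 genes, 16 had their lowest log2 fold change after POLR1A depletion, 25 after POLR2A depletion and 9 under actinomycin D, numbers that were 2, 45 and 3 under mitochondrial scaling.

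Counts in a library are shares, so the direction of a change depends on the scaling. Libraries were scaled by TMM, which assumes that most genes do not change. Scaled instead by the 13 mitochondrial mRNAs, which took 5.58% to 5.98% of counts in POLR1A-depleted cells, 8.68% to 10.4% in POLR2A-depleted cells, 3.42% to 3.54% with actinomycin D and 6.06% to 8.17% in the controls, the median of all genes moved to 0.37 for POLR1A depletion, -0.20 for POLR2A depletion and 0.82 for actinomycin D. Of the 50 genes, 24 were then called lower and 1 higher with POLR1A depleted, and 48 lower and 0 higher with POLR2A depleted. With actinomycin D 6 were lower and 32 higher, where the split of 37 lower and 4 higher thus turned round. Of all 23593 genes, 1263 were then lower and 7200 higher with POLR1A depleted, and 8011 lower and 5041 higher with POLR2A depleted. With actinomycin D 2061 of all genes were lower and 11900 higher, so their split turned round as well. Whether the mitochondrial mRNAs themselves changed with a treatment was not tested. A scaling shifts all genes of a comparison by nearly the same amount, so positions relative to the median of all genes stay close by construction. The median of the 50 minus the median of all genes was -0.68 with TMM and -0.68 with mitochondrial scaling for POLR1A, -0.91 under both for POLR2A, and -0.39 with TMM and -0.35 with mitochondrial scaling for actinomycin D. Under TMM, 49, 48 and 40 of the 50 were below the median of all genes in the 3 comparisons, and under mitochondrial scaling 49, 48 and 39. The log2 fold changes that follow are on the TMM scale, and a called change that took the other sign under mitochondrial scaling is named where it is given. Calls that were lost there with the sign kept are not all named. With POLR1A depleted, WDR43 (-0.18), UTP18 (-0.08), MPHOSPH10 (-0.24), IMP3 (-0.28), NGDN (-0.30) and WDR46 (-0.13) kept the sign but were not called. With actinomycin D the same held for RRP7A and UTP14A. Counts called by role, given below, rest on 3 to 11 genes each. They stand beside 18.6% of all genes lower and 20.6% higher with POLR1A depleted. The shares are 28.2% and 33.2% with POLR2A depleted, and 28.5% and 24.9% with actinomycin D.

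**Figure D1:**
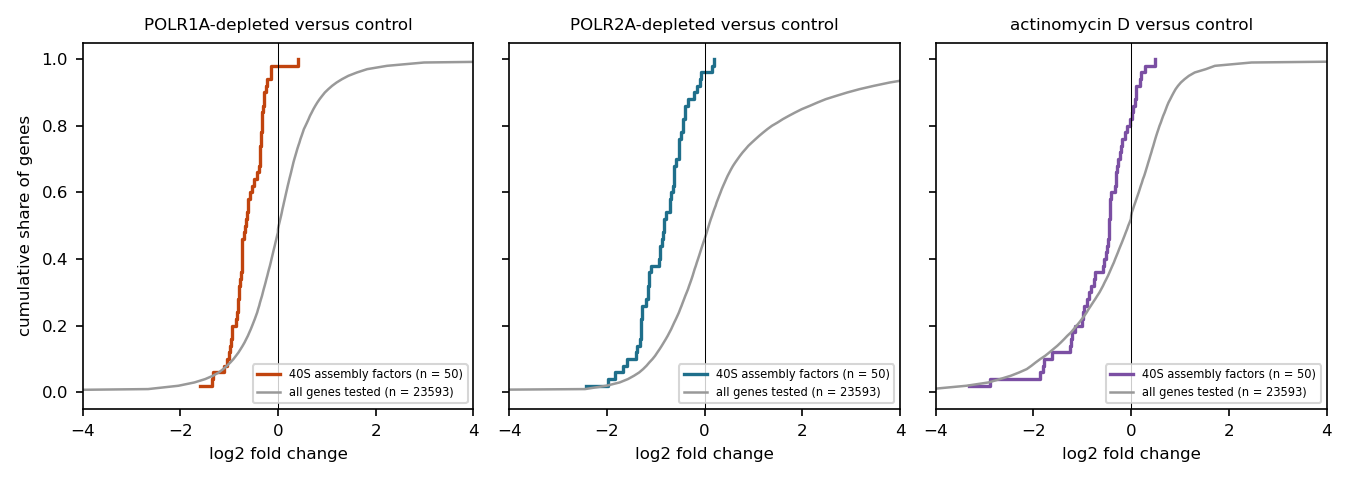
Cumulative distributions of log2 fold change against control for the 50 assembly factors (coloured steps) and all 23593 genes tested (grey line, drawn at whole percentiles), on the TMM scale, for POLR1A depletion, POLR2A depletion and actinomycin D. The factors lie to the left of all genes in the first 2 panels over most of their range, with medians of -0.66 and -0.83, and less so with actinomycin D (median -0.45, which becomes 0.47 under mitochondrial scaling).

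**Figure D2:**
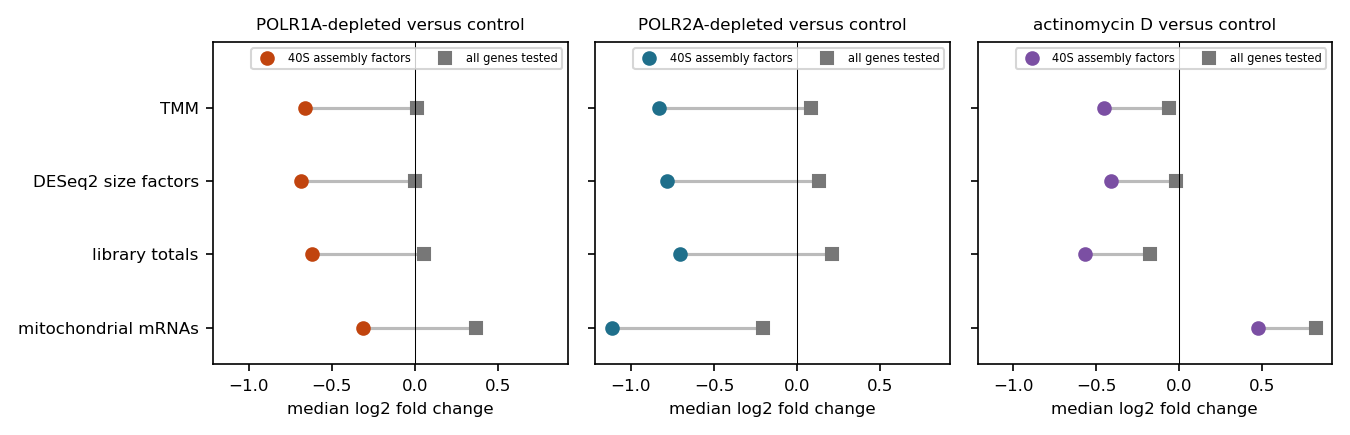
Median log2 fold change against control of the 50 assembly factors (circles) and of all genes tested (squares) under 4 scalings of the libraries. Mitochondrial scaling moves both medians, to 0.47 and 0.82 with actinomycin D, while the first minus the second is -0.35 there, against -0.39 with TMM.

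**Figure D3:**
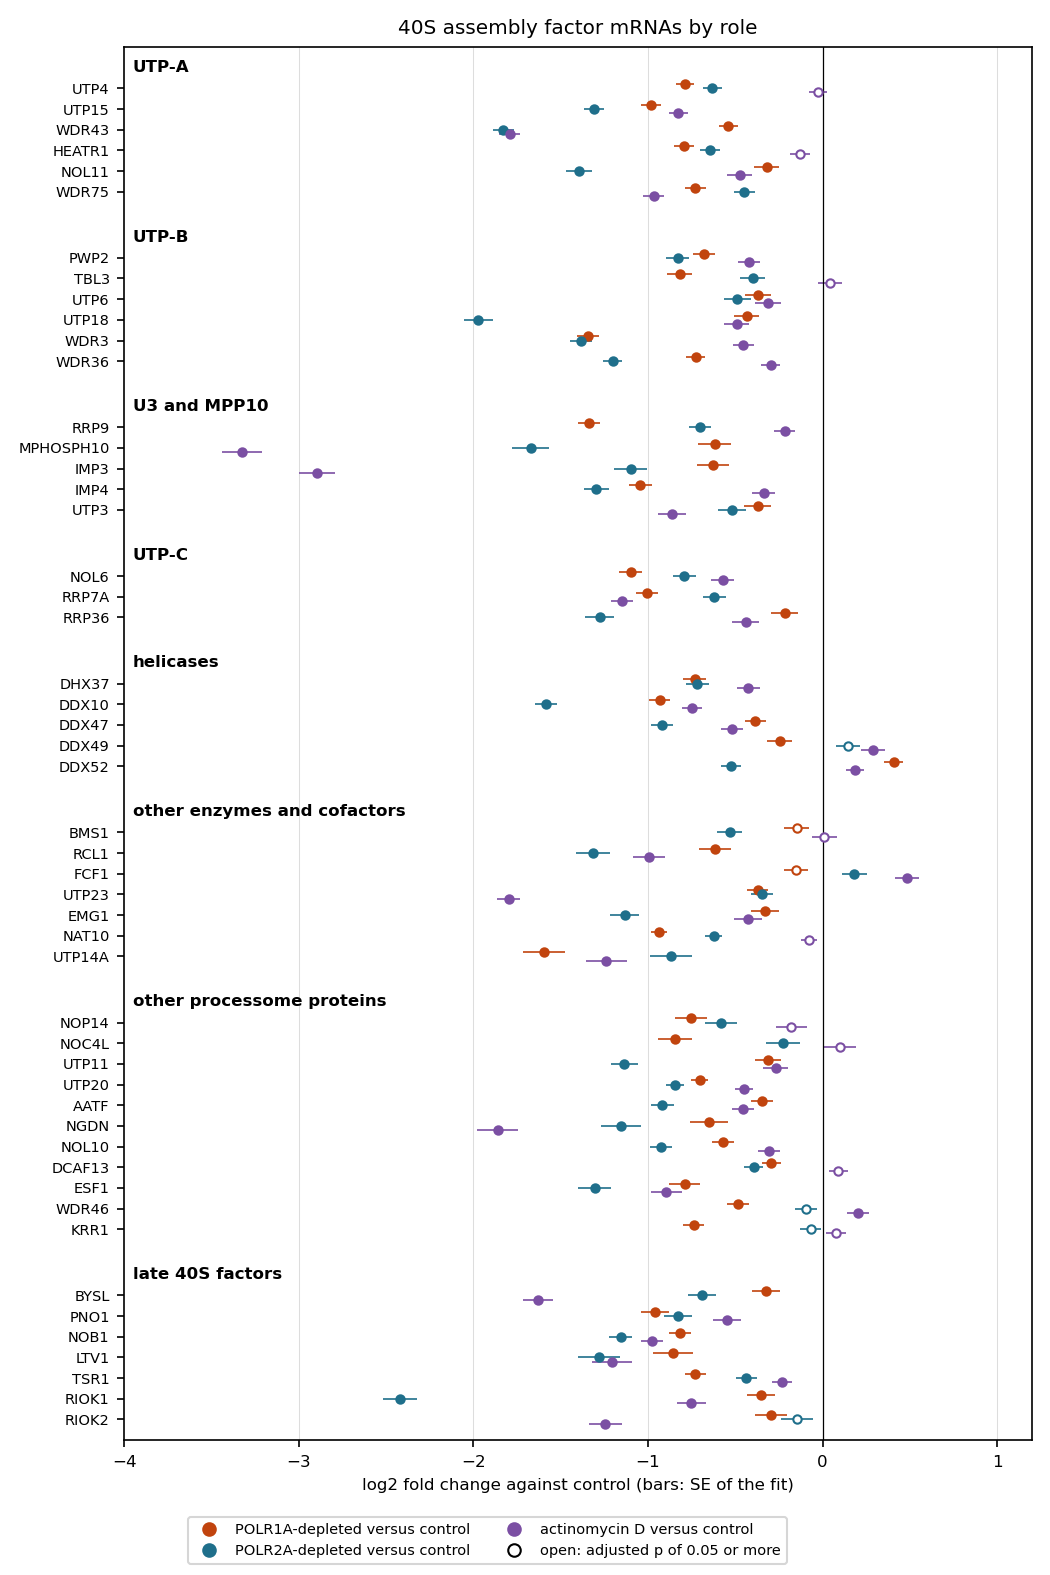
Log2 fold change against control of each of the 50 genes by role on the TMM scale, with POLR1A depleted, POLR2A depleted or actinomycin D; bars are the SE of the fit, filled points passed an adjusted p under 0.05 and open points did not. With actinomycin D 24 of the filled points below 0, such as WDR3 and RIOK1, are above 0 under mitochondrial scaling, while MPHOSPH10 and IMP3 are at -2.39 and -1.99.

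UTP-A binds the first stretch of the nascent precursor, and several of its subunits are also needed for transcription of ribosomal RNA genes. All 6 mRNAs fell with either polymerase depleted, with medians of -0.76 for POLR1A and -0.98 for POLR2A, though NOL11 with POLR1A depleted was -0.32 with TMM and 0.04 with mitochondrial scaling. WDR43 (chr2:28894643-28948222), the human counterpart of yeast Utp5, had 174, 165 and 180.4 CPM in POLR1A-depleted cells, 72.7, 65.2 and 74.96 CPM in POLR2A-depleted cells and 75.1, 71.3 and 71.6 CPM with actinomycin D, against 237, 253 and 264 CPM in the controls. Each treated library was below every control, and POLR2A depletion and actinomycin D overlapped, with a log2 difference of 0.04 ± 0.061 (SE) between actinomycin D and POLR2A depletion (adjusted p = 0.615) on the TMM scale and 1.25 ± 0.14 (SE) under mitochondrial scaling (adjusted p = 9.59e-14). Its log2 fold change was -0.54 ± 0.056 (SE) with POLR1A depleted, -1.83 ± 0.06 (SE) with POLR2A depleted and -1.79 ± 0.059 (SE) with actinomycin D (adjusted p = 7.83e-08, 5.51e-16 and 2.88e-16).

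Of the 5 other subunits of UTP-A, 3 were called lower with actinomycin D, by less than WDR43. They were WDR75 at -0.97, UTP15 at -0.83 and NOL11 at -0.48, which had values of -0.04, 0.08 and 0.45 under mitochondrial scaling. UTP4 was at -0.03 (adjusted p = 0.688) and HEATR1, the largest protein of the complex, at -0.13 (adjusted p = 0.0675), neither of them called on the TMM scale, and both were called higher under mitochondrial scaling, at 0.89 and 0.80. Within a library, where no scaling enters, WDR43 had 2.0 to 2.29 counts for each count of UTP4 in POLR1A-depleted cells, 0.723 to 0.846 in POLR2A-depleted cells and 0.515 to 0.57 with actinomycin D, against 1.71 to 1.93 in the controls. The ratio was above that of every control in POLR1A-depleted cells and below it in the other treatments, and the pair was chosen after its values were seen. NOL11, a subunit without a clear yeast counterpart by sequence, fell by 1.40 on the log2 scale with POLR2A depleted.

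UTP-B joins after UTP-A and contacts the 5′ spacer and U3. All 6 mRNAs fell with either polymerase depleted, with medians of -0.70 for POLR1A and -1.02 for POLR2A. UTP18 (chr17:51260528-51297936), which in yeast recruits the exosome cofactor Mtr4, had 68.7, 69.8 and 66.4 CPM in POLR1A-depleted cells, 24.7, 19.8 and 26.6 CPM in POLR2A-depleted cells and 69.3, 61.7 and 66.1 CPM with actinomycin D, against 88.1, 94.7 and 93.9 CPM in the controls. POLR2A-depleted libraries stood far below all the others, while POLR1A depletion and actinomycin D overlapped each other and were both below the controls. Its log2 fold change was -1.97 ± 0.082 (SE) with POLR2A depleted, -0.43 ± 0.073 (SE) with POLR1A depleted and -0.49 ± 0.073 (SE) with actinomycin D, the last of which became 0.43 under mitochondrial scaling (adjusted p with TMM = 1.94e-14, 4.48e-05 and 5.85e-06).

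WDR3 (chr1:117929720-117966542), the counterpart of yeast Utp12, fell with either polymerase depleted. It had 79.6, 74.8 and 73.1 CPM in POLR1A-depleted cells, 76.3, 70.1 and 74.4 CPM in POLR2A-depleted cells and 139, 140.4 and 141 CPM with actinomycin D, against 172, 209.5 and 194 CPM in the controls. Libraries of the 2 degron groups overlapped, and those with actinomycin D lay between them and the controls. WDR3 changed by -1.34 ± 0.062 (SE) on the log2 scale with POLR1A depleted and -1.39 ± 0.064 (SE) with POLR2A depleted (adjusted p = 3.04e-13 and 9.15e-14), and the difference between the 2 was 0.04 ± 0.064 (SE) with TMM (adjusted p = 0.578) and 0.69 ± 0.14 (SE) under mitochondrial scaling (adjusted p = 7.81e-06). With actinomycin D it was -0.45 on the TMM scale and 0.47 under mitochondrial scaling. TBL3 was the 1 subunit of the 6 that was not called with actinomycin D, at 0.04, and the 5 called lower there all took a positive sign under mitochondrial scaling.

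**Figure D4:**
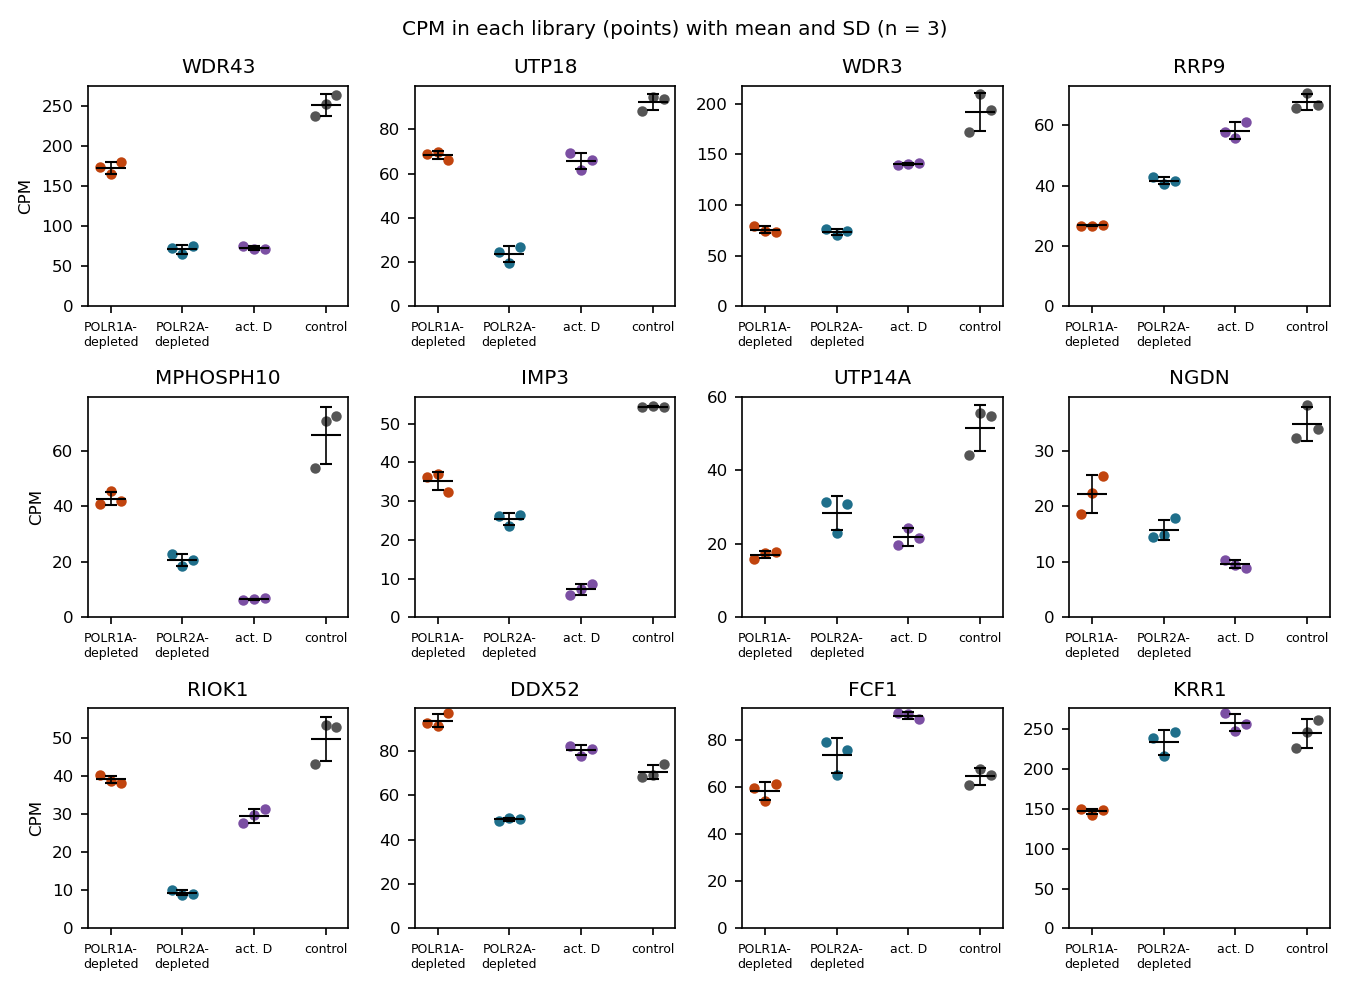
CPM of 12 assembly factor genes in every library (points), with the mean and SD of 3 libraries, for POLR1A depletion, POLR2A depletion, actinomycin D and control from left to right, on axes that start at 0 and differ between panels. On this TMM scale POLR2A-depleted libraries are lowest for UTP18 and RIOK1, actinomycin D libraries for MPHOSPH10, IMP3 and NGDN, and POLR1A-depleted libraries for RRP9, UTP14A and KRR1. Under mitochondrial scaling UTP18, WDR3, RRP9 and RIOK1 are not below the controls with actinomycin D. There NGDN and RRP9 are lowest with POLR2A depleted, and RRP9, UTP14A and KRR1 are not called between the degron groups.

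The U3 RNP guides the first cleavages by base pairing with the precursor, and MPHOSPH10, IMP3 and IMP4 form a complex that holds U3 on it. The widest falls of the whole set were found here. MPHOSPH10 (chr2:71130314-71150101), the scaffold of that complex, had 40.9, 45.6 and 41.98 CPM in POLR1A-depleted cells, 22.9, 18.5 and 20.6 CPM in POLR2A-depleted cells and 6.36, 6.49 and 6.81 CPM with actinomycin D, against 53.7, 70.7 and 72.5 CPM in the controls. The groups were fully separated, with actinomycin D lowest, then POLR2A depletion, then POLR1A depletion. Its log2 fold change was -3.33 ± 0.11 (SE) with actinomycin D, -1.67 ± 0.1 (SE) with POLR2A depleted and -0.62 ± 0.095 (SE) with POLR1A depleted (adjusted p = 4.25e-15, 4.47e-11 and 2.37e-05).

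IMP3 (chr15:75639085-75648706), a small protein that opens the U3 stem for pairing in yeast, moved in the same order. It had 36.1, 36.9 and 32.4 CPM in POLR1A-depleted cells, 26.1, 23.6 and 26.4 CPM in POLR2A-depleted cells and 5.71, 7.37 and 8.65 CPM with actinomycin D, against 54.2, 54.4 and 54.3 CPM in the controls. The 3 control libraries differed by less than 1 CPM, and no group overlapped another. IMP3 changed by -2.90 ± 0.1 (SE) on the log2 scale with actinomycin D, -1.10 ± 0.094 (SE) with POLR2A depleted and -0.63 ± 0.09 (SE) with POLR1A depleted (adjusted p = 1.14e-15, 2.00e-09 and 6.11e-06). IMP3 shares 801 exon bases with SNX33 on the opposite strand, and the strand setting of the counting is not given in the sources used here.

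IMP4, the third protein of the MPP10 complex, had a smaller difference with actinomycin D, at 90.2 ± 1.54 CPM against 114 ± 13.3 CPM in the controls (SD, n = 3 each), a log2 fold change of -0.34 with TMM and 0.59 with mitochondrial scaling. Within a library MPHOSPH10 had 0.729 to 0.862 counts per count of IMP4 in POLR1A-depleted cells, 0.404 to 0.486 in POLR2A-depleted cells and 0.0706 to 0.0762 with actinomycin D, against 0.534 to 0.639 in the controls. IMP3 had 0.572 to 0.697 counts per count of IMP4 in POLR1A-depleted cells, 0.515 to 0.57 in POLR2A-depleted cells and 0.064 to 0.0967 with actinomycin D, against 0.428 to 0.538 in the controls. With actinomycin D the mRNAs of the 3 partners were thus present in other proportions than in any library of the other groups. These ratios need no scaling, and the pairs were chosen after their values were seen.

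RRP9 (chr3:51933430-51941941), the U3-specific protein of the RNP, behaved in the opposite order. It had 26.7, 26.6 and 27.1 CPM in POLR1A-depleted cells, 42.8, 40.4 and 41.5 CPM in POLR2A-depleted cells and 57.9, 55.7 and 61.1 CPM with actinomycin D, against 65.5, 70.7 and 66.6 CPM in the controls. No group overlapped another, and POLR1A depletion was lowest. The log2 fold change was -1.34 ± 0.063 (SE) with POLR1A depleted and -0.70 ± 0.062 (SE) with POLR2A depleted (adjusted p = 3.44e-13 and 3.18e-09), and with actinomycin D it was -0.22, which became 0.70 under mitochondrial scaling. POLR1A-depleted over POLR2A-depleted cells, the log2 fold change was -0.63 ± 0.064 (SE) on the TMM scale (adjusted p = 2.52e-08) and 0.01 under mitochondrial scaling.

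UTP-C brings in further proteins and, in yeast, couples assembly to other nuclear enzymes. All 3 mRNAs fell in every comparison with the controls on the TMM scale, whereas under mitochondrial scaling RRP36 turned with POLR1A depleted (0.15) and RRP36 and NOL6 turned with actinomycin D (0.49 and 0.33). RRP7A (chr22:42509968-42519802) had 44.5, 43.7 and 46.4 CPM in POLR1A-depleted cells, 55.02, 57.7 and 63.3 CPM in POLR2A-depleted cells and 42.9, 40.1 and 38.9 CPM with actinomycin D, against 88.6, 94.1 and 87.1 CPM in the controls. Every treated library was below every control, with log2 fold changes of -1.005 ± 0.063 (SE) with POLR1A depleted, -0.62 ± 0.064 (SE) with POLR2A depleted and -1.15 ± 0.064 (SE) with actinomycin D (adjusted p = 3.61e-11, 3.22e-08 and 1.61e-12). Counts of the pseudogene RRP7BP came to 42.1% of those of RRP7A over all libraries, and its own log2 fold changes were -1.13, 0.52 and -0.56, so the split of reads between the 2 is uncertain. NOL6 fell by 1.10 on the log2 scale with POLR1A depleted and RRP36 by 1.28 with POLR2A depleted.

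Helicases of the processome unwind snoRNA and precursor RNA duplexes, and DHX37 releases U3 at the end. Of the 5 mRNAs, 4 fell and 1 rose with POLR1A depleted, and 4 fell with POLR2A depleted. With actinomycin D 3 fell and 2 rose, beside 28.5% and 24.9% of all genes, and those 3 took a positive sign under mitochondrial scaling. DDX10 (chr11:108665025-108940930), the counterpart of yeast Dbp4, had 74.4, 69.3 and 70.0 CPM in POLR1A-depleted cells, 43.3, 48.2 and 44.1 CPM in POLR2A-depleted cells and 80.9, 84.3 and 77.4 CPM with actinomycin D, against 133, 129 and 145 CPM in the controls. Its log2 fold change was -0.93 ± 0.06 (SE) with POLR1A depleted and -1.59 ± 0.063 (SE) with POLR2A depleted (adjusted p = 4.30e-11 and 9.49e-15), and with actinomycin D -0.75, or 0.16 under mitochondrial scaling. POLR2A depletion gave the lowest libraries, and all treated libraries were below all controls.

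DDX52, the counterpart of yeast Rok1 (chr17:37609739-37643464), was the 1 gene of the 50 called higher with POLR1A depleted. It had 92.5, 91.3 and 96.9 CPM in POLR1A-depleted cells, 48.3, 49.6 and 49.2 CPM in POLR2A-depleted cells and 82.1, 77.8 and 80.8 CPM with actinomycin D, against 68.2, 69.1 and 74.1 CPM in the controls. POLR1A-depleted and actinomycin D libraries were above every control and POLR2A-depleted libraries were below every control. Log2 fold changes of DDX52 were 0.41 ± 0.054 (SE) with POLR1A depleted, -0.52 ± 0.057 (SE) with POLR2A depleted and 0.19 ± 0.054 (SE) with actinomycin D (adjusted p = 2.01e-06, 7.08e-08 and 0.00591), and these signs were the same under mitochondrial scaling.

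DDX49 (chr19:18919675-18928633) had 32.0, 35.9 and 35.6 CPM in POLR1A-depleted cells, 47.3, 44.9 and 43.6 CPM in POLR2A-depleted cells and 49.2, 47.2 and 53.5 CPM with actinomycin D, against 40.4, 42.3 and 40.2 CPM in the controls. POLR1A-depleted libraries lay below every control, and libraries of the other treatments above. Log2 fold changes were -0.25 ± 0.07 (SE) with POLR1A depleted, which became 0.10 under mitochondrial scaling, 0.15 ± 0.071 (SE) with POLR2A depleted and 0.29 ± 0.069 (SE) with actinomycin D (adjusted p with TMM = 0.00741, 0.0806 and 0.00129). Without POLR1A-depleted replicate 1 the first of these was -0.19 and was not called. DHX37 was at -0.73 with POLR1A depleted and -0.72 with POLR2A depleted, or -0.38 and -1.01 under mitochondrial scaling.

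Among the other enzymes and cofactors UTP14A (chrX:129906121-129929761), which activates the helicase DHX37, had the lowest value with POLR1A depleted, RCL1 with POLR2A depleted and UTP23 with actinomycin D. UTP14A had 15.9, 17.6 and 17.8 CPM in POLR1A-depleted cells, 31.4, 23.04 and 30.9 CPM in POLR2A-depleted cells and 19.6, 24.3 and 21.6 CPM with actinomycin D, against 44.3, 55.8 and 54.7 CPM in the controls. Treated libraries were all below the controls, and those of POLR1A-depleted cells were below those of the other treatments. UTP14A changed by -1.59 ± 0.12 (SE) on the log2 scale with POLR1A depleted, the lowest of the 50 genes there, -0.87 ± 0.12 (SE) with POLR2A depleted and -1.24 ± 0.12 (SE) with actinomycin D (adjusted p = 9.64e-09, 7.06e-06 and 8.50e-08). Counts of its retrotransposed copy UTP14C came to 25.6% of its own, so part of the reads is uncertain.

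FCF1 (chr14:74713144-74738620), the endonuclease that cuts the precursor at the 5′ end of 18S in yeast, and BMS1, a GTPase, were the 2 of the 50 that were not called with POLR1A depleted. FCF1 had 59.4, 53.8 and 61.1 CPM in POLR1A-depleted cells, 79.1, 65.03 and 75.8 CPM in POLR2A-depleted cells and 91.2, 90.7 and 88.8 CPM with actinomycin D, against 60.7, 67.6 and 65.01 CPM in the controls. POLR1A-depleted libraries overlapped the controls, as did those of POLR2A-depleted cells, and actinomycin D libraries were above every control. The log2 fold change was 0.48 ± 0.069 (SE) with actinomycin D (adjusted p = 3.40e-06) and -0.15 ± 0.07 (SE) with POLR1A depleted (adjusted p = 0.0978). With POLR2A depleted it was 0.18 ± 0.071 (SE) (adjusted p = 0.0304), a call that became -0.11 under mitochondrial scaling and was lost, at values between 0.11 and 0.17, without 1 of 9 libraries: actinomycin D replicate 1, 2 or 3, POLR1A-depleted replicate 1 or 3, POLR2A-depleted replicate 1 or 3, or control replicate 1 or 3.

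BMS1 (chr10:42782801-42834937) had 145, 147 and 151 CPM in POLR1A-depleted cells, 120.0, 101 and 119.6 CPM in POLR2A-depleted cells and 164, 173 and 158 CPM with actinomycin D, against 145, 176 and 170.3 CPM in the controls. It fell with POLR2A depleted, by 0.53 on the log2 scale (adjusted p = 4.25e-06), and its log2 fold changes were -0.15 with POLR1A depleted and 0.01 with actinomycin D (adjusted p = 0.112 and 0.931). The first of these was called, at -0.20 and -0.22, without POLR2A-depleted replicate 2 or control replicate 1. Copies of BMS1 annotated as pseudogenes held 28.4% as many counts as the gene. RCL1, which BMS1 carries into the processome, fell by 1.32 with POLR2A depleted on the log2 scale.

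UTP23, which resembles FCF1 and helps to release an snoRNA from the precursor in yeast, had a lower level with actinomycin D, where FCF1 had a higher one. Its level was 15.9 ± 0.707 CPM with actinomycin D against 55.4 ± 1.29 CPM in the controls (SD, n = 3 each), a log2 fold change of -1.80 ± 0.066 (SE) (adjusted p = 1.47e-15), and with a polymerase depleted it was -0.37 and -0.35. UTP23 shares exon bases with neighbours on the opposite strand, so its counts are uncertain. NAT10, the cytidine acetyltransferase of 18S, had -0.94 for POLR1A depletion, -0.62 for POLR2A depletion and -0.08 for actinomycin D, the last not called (adjusted p = 0.178). EMG1, the methyltransferase of 18S, fell by 1.13 with POLR2A depleted on the log2 scale.

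Of the 11 other processome proteins all fell with POLR1A depleted on the TMM scale (UTP11, AATF and DCAF13 had values of 0.05, 0.02 and 0.06 under mitochondrial scaling). NGDN (chr14:23469688-23509862), which binds AATF and NOL10, had 18.6, 22.3 and 25.5 CPM in POLR1A-depleted cells, 14.5, 14.8 and 17.8 CPM in POLR2A-depleted cells and 10.4, 9.47 and 8.93 CPM with actinomycin D, against 32.3, 38.2 and 33.9 CPM in the controls. Every treated library was below every control, and actinomycin D was lowest on the TMM scale, while NGDN was lowest with POLR2A depleted under mitochondrial scaling. Its log2 fold change was -1.86 ± 0.12 (SE) with actinomycin D, -1.15 ± 0.12 (SE) with POLR2A depleted and -0.65 ± 0.11 (SE) with POLR1A depleted (adjusted p = 1.19e-11, 2.02e-08 and 4.17e-05). Its partners AATF and NOL10 had -0.45 and -0.31 with actinomycin D, which became 0.48 and 0.61 under mitochondrial scaling.

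KRR1 (chr12:75490861-75511636), a KH-domain protein that binds the rRNA, fell in POLR1A-depleted cells and on the TMM scale was not called in the other treatments. It had 149.6, 143 and 148 CPM in POLR1A-depleted cells, 239, 216 and 247 CPM in POLR2A-depleted cells and 271, 249 and 257 CPM with actinomycin D, against 226, 247 and 262 CPM in the controls. POLR1A-depleted libraries were below every other library, and the rest overlapped. The log2 fold change was -0.74 ± 0.06 (SE) with POLR1A depleted (adjusted p = 1.67e-09), -0.07 with POLR2A depleted (adjusted p = 0.338) and 0.08 with actinomycin D (adjusted p = 0.289), and POLR1A-depleted over POLR2A-depleted cells it was -0.67 ± 0.06 (SE) (adjusted p = 3.48e-09). The last value was -0.02 under mitochondrial scaling, where KRR1 was called lower with POLR2A depleted (-0.36) and higher with actinomycin D (1.00). On the TMM scale, without control replicate 1 KRR1 was called with POLR2A depleted, at -0.14.

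WDR46 (chr6:33279108-33289527), the counterpart of yeast Utp7, followed KRR1 in part. It had 42.8, 45.1 and 44.5 CPM in POLR1A-depleted cells, 59.4, 52.9 and 61.8 CPM in POLR2A-depleted cells and 71.6, 70.5 and 71.5 CPM with actinomycin D, against 59.3, 62.9 and 63.1 CPM in the controls. POLR1A-depleted libraries lay below all the others and actinomycin D libraries above all the others. Log2 fold changes of WDR46 were -0.49 ± 0.062 (SE) with POLR1A depleted and 0.20 ± 0.061 (SE) with actinomycin D (adjusted p = 1.37e-06 and 0.00745), and -0.09 with POLR2A depleted (adjusted p = 0.199). Under mitochondrial scaling WDR46 was called lower with POLR2A depleted and was not called with POLR1A depleted, at -0.13. POLR1A-depleted over POLR2A-depleted cells, it was called lower on the TMM scale and took a positive sign under mitochondrial scaling. ESF1 fell by 1.31 on the log2 scale with POLR2A depleted, and NOC4L, the partner of NOP14, fell by 0.84 with POLR1A depleted.

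Late factors escort the pre-40S particle to the cytoplasm, where NOB1 makes the 3′ end of 18S. All 7 fell with POLR1A depleted on the TMM scale, with BYSL, RIOK1 and RIOK2 at 0.02, 0.02 and 0.06 under mitochondrial scaling, and 6 of 7 fell with POLR2A depleted. RIOK1 (chr6:7389496-7418037), an atypical kinase that acts with NOB1 and PNO1, had 40.2, 38.8 and 38.3 CPM in POLR1A-depleted cells, 10.1, 8.88 and 9.04 CPM in POLR2A-depleted cells and 27.6, 29.9 and 31.3 CPM with actinomycin D, against 43.1, 53.4 and 52.9 CPM in the controls. No group overlapped another, and POLR2A-depleted cells were lowest. Its log2 fold change was -2.42 ± 0.097 (SE) with POLR2A depleted, the lowest of the 50 genes there, and -0.35 ± 0.081 (SE) with POLR1A depleted, which became 0.02 under mitochondrial scaling (adjusted p with TMM = 1.13e-14 and 0.0013). With actinomycin D it was -0.75 on the TMM scale and 0.18 under mitochondrial scaling.

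RIOK2, the kinase that acts before RIOK1, differed from it on the TMM scale. RIOK2 fell by 1.25 on the log2 scale with actinomycin D (adjusted p = 2.72e-10) and was not called with POLR2A depleted, at -0.15 (adjusted p = 0.168). Under mitochondrial scaling RIOK2 was called with POLR2A depleted, at -0.44 (adjusted p = 0.0211), and not with actinomycin D, at -0.33 (adjusted p = 0.0949). RIOK1 had 1.41 to 1.57 counts per count of RIOK2 in POLR1A-depleted cells, 0.301 to 0.333 in POLR2A-depleted cells and 1.86 to 2.57 with actinomycin D, against 1.34 to 1.65 in the controls. Ratios of POLR1A-depleted cells overlapped those of the controls, and the pair was chosen after its values were seen. BYSL fell by 1.63 with actinomycin D on the log2 scale, to 16.5 ± 0.573 CPM against 50.9 ± 6.01 CPM in the controls (SD, n = 3 each), and NOB1 and LTV1 fell by 1.16 and 1.28 with POLR2A depleted.

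Direct comparisons of the treatments follow. Between POLR1A-depleted and POLR2A-depleted cells, 26 of the 50 were called higher and 15 lower in POLR1A-depleted cells (29.1% and 33.2% of all genes), with a median of 0.15 where the median of all genes was -0.08. The median of the 50 was 0.077 with DESeq2 size factors, 0.069 with library totals and 0.24 with no filter on low counts. Under mitochondrial scaling 42 of the 50 were called higher and 0 lower, beside 11332 higher and 3929 lower of all 23593 genes. RIOK1 was higher in POLR1A-depleted cells by 2.07 ± 0.097 (SE) and UTP18 by 1.54 ± 0.081 (SE) (adjusted p = 1.29e-13 and 8.44e-13). The lowest values were those of UTP14A, -0.73, KRR1, -0.67, and RRP9, -0.63, which became -0.07, -0.02 and 0.01 under mitochondrial scaling, none of them called.

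Between actinomycin D and POLR1A depletion, 25 of the 50 were called higher and 15 lower with actinomycin D (24.4% and 31.8% of all genes). Under mitochondrial scaling these counts were 39 and 7, beside 9256 and 3495 of all 23593 genes. Actinomycin D over POLR1A depletion, log2 fold changes were -2.71 ± 0.11 (SE) for MPHOSPH10, -2.27 ± 0.1 (SE) for IMP3 and 1.12 ± 0.062 (SE) for RRP9 (adjusted p = 7.21e-14, 4.72e-14 and 1.01e-12). Between actinomycin D and POLR2A depletion, 37 were called higher and 10 lower with actinomycin D (31.1% and 39.8% of all genes), with a median of 0.40 where the median of all genes was -0.18. Actinomycin D over POLR2A depletion, log2 fold changes were -1.80 ± 0.11 (SE) for IMP3 and 1.67 ± 0.098 (SE) for RIOK1 (adjusted p = 5.37e-12 and 3.26e-12). Of the 10 lower there, MPHOSPH10, IMP3, UTP23, RIOK2, BYSL and NGDN had the lowest values. Under mitochondrial scaling MPHOSPH10 and IMP3 were the 2 of the 50 called lower, beside 4335 of all 23593 genes. UTP23 was -0.25 there and not called, and RIOK2, BYSL and NGDN took a positive sign, at 0.12, 0.26 and 0.50.

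**Figure D5:**
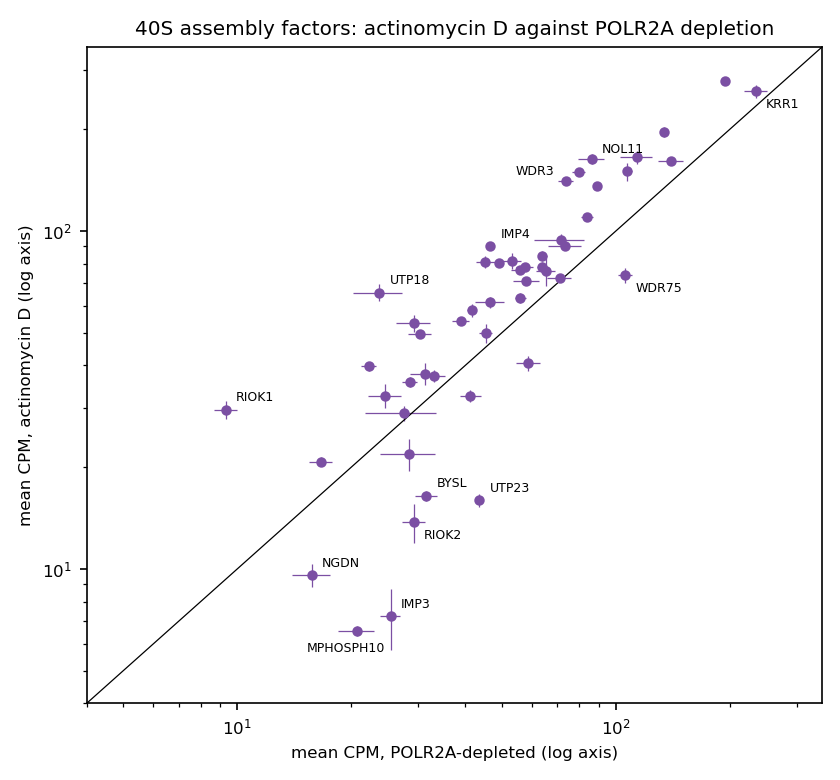
Mean CPM of the 50 genes with actinomycin D (vertical, log axis) against POLR2A-depleted cells (horizontal, log axis), with bars for the SD of 3 libraries and a line of equal levels. Most genes lie above the line (37 called higher with actinomycin D), while MPHOSPH10, IMP3, UTP23, RIOK2, BYSL and NGDN lie below it; under mitochondrial scaling RIOK2, BYSL and NGDN have positive values, and 2 genes, MPHOSPH10 and IMP3, are called lower.

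Per kilobase of exon, levels in the controls ran from RIOK2, 5.90 ± 0.067 CPM per kb, to WDR43, 60.9 ± 3.27 CPM per kb (SD, n = 3). NOB1, at 58.8 ± 5.53 CPM per kb, did not differ from WDR43 beyond that spread. WDR43 was also the highest in POLR1A-depleted cells, at 41.9 ± 1.81 CPM per kb, whereas NOB1, at 26.4 ± 0.909, was highest in POLR2A-depleted cells, level with RRP9 at 26.3 ± 0.771, and NAT10, at 37.4 ± 1.18, was highest with actinomycin D, level with RRP9 at 36.9 ± 1.75. The lowest per kb was UTP14A, at 4.19 ± 0.265, in POLR1A-depleted cells, RIOK1, at 2.88 ± 0.196, in POLR2A-depleted cells, and MPHOSPH10, at 1.40 ± 0.0498, with actinomycin D.

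Gene structure was compared with the fold changes as a description. Over the 50 genes, Spearman's rho between the log2 fold change with actinomycin D and the number of exons was 0.344, against 0.182 over 14917 protein-coding genes, while over the 50 it was -0.267 with POLR1A depleted and -0.0216 with POLR2A depleted. With the average log2 CPM the rho for actinomycin D was 0.447 over the 50 genes against 0.103 over 14924 protein-coding genes, and that average includes the actinomycin D libraries. For POLR2A depletion it was 0.071 over the 50 genes against -0.393 over the protein-coding genes, where better expressed genes thus tended to have lower values. For POLR1A depletion it was -0.0828 against -0.0549. The part of the expression level in the falls of the 50 was not tested. With the length of the 3′ untranslated region the rho for actinomycin D was 0.184 over the 50 genes against -0.0634 over protein-coding genes, and with the number of ATTTA letters there 0.0819 against -0.0808. The genes share libraries and are not independent.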

How the data were processed

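Total RNA was sequenced after ribosomal RNA depletion with a stranded kit, per the labels' protocols, in 12 libraries, 3 in each of 4 groups named by the sample titles. The authors deposited estimated counts for each gene, of which 76.1% were whole numbers. Build GRCh38 and the tools Trim Galore 0.6.10, STAR, SAMtools 1.6, HTSeq 2.0.2, RSEM 1.3.3 and DESeq2 1.44.0 are listed in the submitters' processing notes, without the step each served. Neither the annotation release nor the strand setting of the counting is given in the sources used here.

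These expected counts were rounded and tested in R 4.3.3 with edgeR 4.0.16. The filter filterByExpr kept 23593 genes, and TMM gave the scaling. A common quasi-likelihood fit, with robust moderation and 8 residual degrees of freedom, held all 12 libraries. Calls were made at 0.05 on p-values adjusted by Benjamini-Hochberg over all genes in each comparison. CPM are counts divided by the TMM-scaled library total, in the usual CPM units, and CPM per kb divides by the union of exons in GENCODE 29, which also gave coordinates on GRCh38. Promoters came from RefSeq on GRCh38.p14. Simulated counts with known changes were used to test this fit. Most genes were unchanged in them, so they do not test the scaling where many genes change. Counting depth limits precision, and without molecular identifiers reads are not independent molecules.

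The 50 genes, their roles and the other lists were chosen with earlier results of these data known. Values in every library are given for the 3 lowest and 3 highest genes of each comparison with the controls, the gene with the lowest mean in each role, and genes called in opposite directions; genes named outside this rule were chosen after their values were seen. Alternatives were DESeq2 size factors, library totals, mitochondrial mRNA scaling, no filter, a replicate block, only the 2 groups compared, DESeq2 1.42.0 as the test, and each library left out.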

Additional observations from a re-analysis of the deposited data

How the results depend on the processing

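Mitochondrial mRNA scaling moved most counts. Of the 50 genes it called 24 lower with POLR1A depleted, 0 higher with POLR2A depleted, and 6 lower and 32 higher with actinomycin D, where their median log2 fold change was 0.47. It called 0 lower and 42 higher for POLR1A over POLR2A depletion, 7 lower and 39 higher for actinomycin D over POLR1A depletion, and 2 lower for actinomycin D over POLR2A depletion. Counts over all genes under this scaling are given with the results above. Of the calls against the controls, 10 took the other sign under it for POLR1A, 1 for POLR2A and 24 for actinomycin D. None of the 10 for POLR1A was called under mitochondrial scaling, nor was the 1 for POLR2A. SEs were wider there: for POLR1A against control they ran from 0.13 (HEATR1) to 0.17 (NGDN), against 0.048 to 0.12 with TMM. Between treatments 13 calls took the other sign for POLR1A over POLR2A depletion, 8 for actinomycin D over POLR1A depletion and 7 for actinomycin D over POLR2A depletion. Among the 17 genes given in every library, values that turned and were called under at least 1 of the 2 scalings were, with POLR1A depleted, DDX49 (0.10) and RIOK1 (0.022), with POLR2A depleted, FCF1 (-0.11), and with actinomycin D, UTP18 (0.43), WDR3 (0.47), RRP9 (0.70), DDX10 (0.16) and RIOK1 (0.18). For POLR1A over POLR2A depletion they were RRP9 (0.011), RRP7A (0.25), DDX49 (0.25), FCF1 (0.32) and WDR46 (0.26). For actinomycin D over POLR1A depletion they were UTP18 (0.50), RRP7A (0.42), DDX52 (0.34) and RIOK1 (0.16), and for actinomycin D over POLR2A depletion RRP7A (0.67), UTP14A (0.84) and NGDN (0.50), and outside those 17 also RIOK2 (0.12), BYSL (0.26), WDR75 (0.69) and UTP3 (0.87). The scaling sets the mitochondrial mRNAs equal by construction, and whether they were equal was not tested.

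Library totals alone called 2 higher with actinomycin D, and for actinomycin D over POLR1A depletion they gave a median of -0.0027. For actinomycin D over POLR2A depletion they gave WDR43 -0.20 and KRR1 -0.095. The count higher with POLR2A depleted was 2 with DESeq2 size factors, 2 with library totals, 2 with DESeq2 as the test and 0 with no filter on low counts, and between 0 and 1 with each library left out; the cause was not tested. With each library left out, the number called lower was 45 to 49 for POLR1A, 44 to 46 for POLR2A and 37 to 38 for actinomycin D. Replicate numbers did not pair the libraries, since deviations of same-numbered libraries correlated between -0.06 and 0.04. With the replicate number as a block, 47 fell and 1 rose for POLR1A, 44 and 1 for POLR2A, and 37 and 4 for actinomycin D.

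Between replicates of a group chi-square per gene was 3.52 to 9.37, so no library was a copy of another. Genes with close copies (BMS1, RRP7A, UTP14A) or with neighbours on the opposite strand keep uncertain counts at any depth.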

Other observations

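Assembly factors of the large (60S) subunit, 50 genes, were listed beside them, and no test of a difference between the lists was made. On the TMM scale, with POLR1A depleted 43 fell and 1 rose (median -0.55; 18.6% and 20.6% of all genes), led by NOP16 (-1.31), RRS1 (-1.30) and BOP1 (-1.28). With POLR2A depleted 43 fell and 1 rose (median -0.68; 28.2% and 33.2% of all genes), led by BRIX1 (-1.53), NOP16 (-1.49) and GNL2 (-1.44). With actinomycin D 32 fell and 8 rose on the TMM scale (median -0.26; 28.5% and 24.9% of all genes), led by ZNF622, a factor of late 60S export and maturation, at -3.0, with 3.37 ± 0.272 CPM against 26.9 ± 4.93 CPM in the controls (SD, n = 3 each), and by RRS1 (-2.40) and NOP16 (-2.30). Under mitochondrial scaling the numbers lower and higher were 15 and 4 with POLR1A depleted, 44 and 0 with POLR2A depleted, and 8 and 37 with actinomycin D. Over all 23593 genes they were 1263 and 7200, 8011 and 5041, and 2061 and 11900.

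Of 8 core proteins of the small nucleolar RNPs, 7 fell with POLR1A depleted (18.6% of all genes) and 7 with POLR2A depleted (28.2%). With actinomycin D 3 fell and 3 rose on the TMM scale, beside 28.5% and 24.9% of all genes. Under mitochondrial scaling 4 were lower with POLR1A depleted, 7 lower with POLR2A depleted and 7 higher with actinomycin D. Of all 23593 genes, those numbers were 1263, 8011 and 11900. NOP56, a box C/D protein, was lowest in each, at -1.20, -1.35 and -0.93. NHP2, a box H/ACA protein, was at 0.69 with actinomycin D.

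The U3 snoRNA itself is made by a multi-copy gene family, and its counts differed widely between replicates. SNORD3A had 2892, 5602 and 4876 counts in POLR1A-depleted cells, 4180, 1130 and 3408 in POLR2A-depleted cells and 8618, 12662 and 8703 with actinomycin D, against 3112, 9743 and 8675 in the controls. SNORD3D was at 0 in 2 of 3 control libraries and 357 in the other. Reads of near-identical copies cannot be told apart, so no direction is given.

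The genes WDR43, TSR1 and NOL11 host small nucleolar RNA genes on their own strand. Of 6 such genes, 5 had under 90 counts over all 12 libraries or none, and SNORD91B, inside TSR1, had 150 and was not called in any comparison with the controls.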
